A study of Bos taurus with 3 samples.

Results

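Stage II of lactogenesis, the days around calving in which copious milk secretion begins, was followed by comparing the mammary library taken 3 days after parturition (+3 d) with the library taken 7 days before it (−7 d). The comparison took in every gene with at least 1 tag in either library, 8784 of the 9154 genes found in the series, without any choice by level or by function. Tissue of Holstein cows of the second parity was collected by the study, with no treatment named for either group; 6 cows gave tissue at −7 d and 6 other cows at +3 d, and the samples of a group were pooled before RNA was isolated. Another pool of 6 cows, taken 35 days before parturition (−35 d) in the dry period, is used here only for reference levels and for scaling factors. The tissue is whole mammary gland, so that fewer cells of a type and less RNA per cell cannot be told apart in any value below.

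In the cow, the gland is rebuilt during the dry period, and alveolar epithelial cells multiply and differentiate in the last weeks of pregnancy. When progesterone falls at calving, prolactin and glucocorticoids drive these cells to secrete caseins, whey proteins, lactose and membrane-coated fat globules. Myoepithelial cells around the alveoli contract under oxytocin to eject the milk.

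Digital gene expression (DGE) counts short tags of 21 bases, in principle 1 for each transcript. A level is thus a number of tags per 1000000 clean tags (TPM) that in principle does not grow with transcript length. The paper states that further CATG sites of a transcript also gave tags, and the count of a gene takes in all its unambiguous tags. The libraries held 5593237 clean tags at −7 d and 5845821 at +3 d, of which 41.4% and 53.0% lay on the listed genes. A gene was called upregulated or downregulated where the Audic-Claverie test gave a Benjamini-Hochberg adjusted p, the false discovery rate or FDR, no greater than 0.001 together with a difference of 2-fold or more; "rose" and "fell" are used below only for called genes. With 1 pool per day no difference between the libraries has a replicate library, and the test compares these libraries and not the conditions. The intervals given with a fold are 95% exact binomial intervals that cover counting error only. The paper also measured some genes by quantitative real-time PCR, partly on RNA from biological replicates. Among them were CSN2, CSN1S2, GLYCAM1, CIDEA, GP2, SST and PNMT. It describes their patterns as broadly similar to those of DGE, and those measurements were not used here. No fold is given for a gene with 3 or fewer tags in a library, because an unlisted gene may have had tags that the tables do not show.

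Over all genes tested, 274 (3.12%) were called upregulated and 915 (10.4%) downregulated at +3 d. The direction of the split depended on the scaling: 5 genes that each held over 1% of a library (CSN1S1, CSN2, PAEP, CSN3 and CSN1S2) took 4.13% of the clean tags at −7 d and 22.6% at +3 d, and the summed level of the other listed genes was 372404 TPM and 303747 TPM. Scaling by the trimmed mean of M values (TMM) raised every ratio 1.24-fold (0.31 on the log2 scale), after which 516 genes (5.87%) were upregulated and 430 (4.9%) downregulated. Under both scalings 274 genes (3.12%) were upregulated and 430 (4.9%) downregulated, and 0 genes were called in opposite directions. The median log2 ratio of the 7436 genes averaging 1 TPM or more was −0.31 on clean tags and −0.0047 after TMM scaling, and list medians below are to be read beside these values. Counts of called genes in a list are likewise to be read beside the shares called over all genes. Among genes with a mean of 1 to 5 TPM, 1.99% were upregulated and 4.92% downregulated, while among those with a mean of 100 to 1000 TPM the shares were 5.34% and 15.8%.

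**Figure D1:**
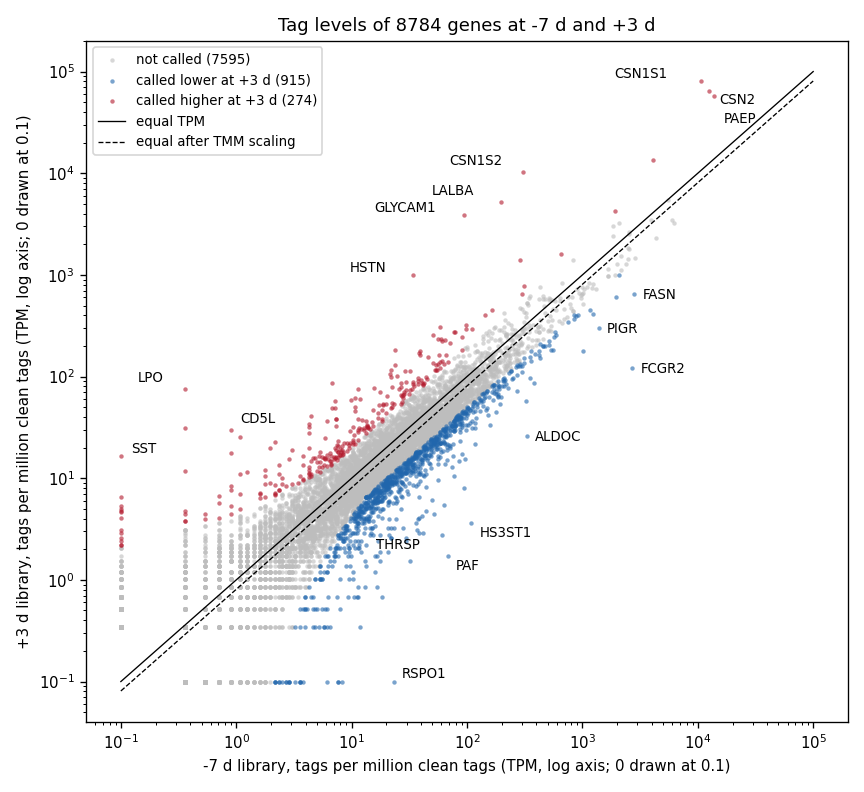
Level of each of the 8784 genes at −7 d (x axis) and +3 d (y axis), in TPM on log axes, with 0 drawn at 0.1; the solid line marks equal TPM and the dashed line equal levels after TMM scaling. The 274 upregulated genes (red) included the caseins at the upper right, and the 915 downregulated genes (blue) formed a band along the lower edge of the cloud.

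**Figure D2:**
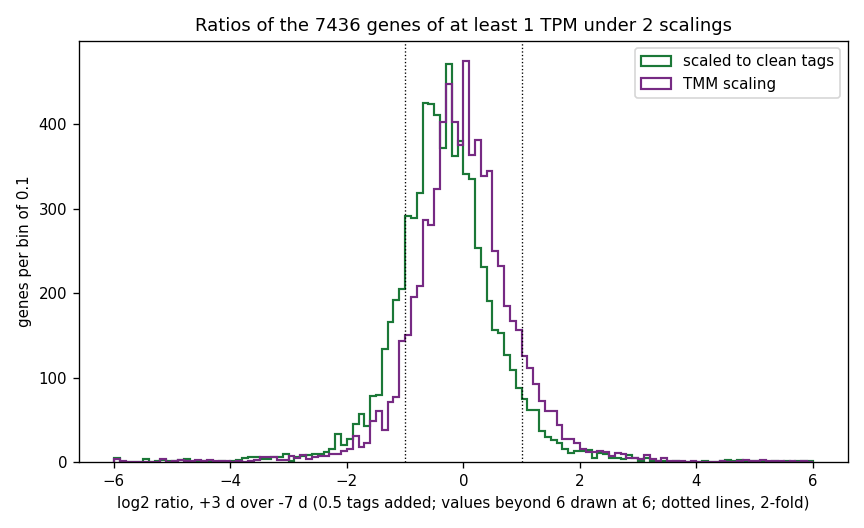
Number of genes per bin of 0.1 in the log2 ratio of +3 d over −7 d, for the 7436 genes averaging 1 TPM or more, scaled to clean tags (green) or by TMM (purple); dotted lines mark 2-fold. The whole distribution moved by 0.31 between the scalings, which set how many genes lay beyond each dotted line.

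The weight of a few transcripts was visible in the tags themselves, and those shown carried the 5 largest gains and the 5 largest losses in TPM. The 5 distinct tags with the largest gain in TPM made up 3.70% of the −7 d library and 19.2% of the +3 d library. These tags are printed 5′ to 3′ with the NlaIII site CATG in capitals and the 17 bases after it in lower case, each with its copies at −7 d and +3 d; the tags were not matched to genes here.
Gaining tag 1, 53108 and 408559 copies: CATGctggtataaaggccact
Gaining tag 2, 68500 and 298489 copies: CATGcacatccggctgtcctt
Gaining tag 3, 34589 and 203432 copies: CATGaacatatcaaaatatgt
Gaining tag 4, 27792 and 136482 copies: CATGgaacaaaaaatgaaact
Gaining tag 5, 22764 and 77657 copies: CATGgcacgtcacccacaccc
Losing tag 1, 61468 and 26741 copies: CATGtgatttcactttaactc
Losing tag 2, 37767 and 23584 copies: CATGtgacacgtatccctacc
Losing tag 3, 29788 and 15736 copies: CATGgattcctagtctgagcc
Losing tag 4, 14836 and 698 copies: CATGgatgatttcagaaatgt
Losing tag 5, 33376 and 20081 copies: CATGctcaccaataaatgcta
Per clean tag sequenced, the gaining tags were 7.36-fold, 4.17-fold, 5.63-fold, 4.70-fold and 3.26-fold higher at +3 d, in this order. The losing tags were 2.40-fold, 1.67-fold, 1.98-fold, 22.2-fold and 1.74-fold lower, in this order, so that only the fourth of them fell by more than 3-fold. Of 229275 distinct tags in either library, 1267 were called higher and 3223 lower by the same test.

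All 6 genes of the caseins and main whey proteins were upregulated under both scalings, with a summed level of 41525 TPM at −7 d and 231338 TPM at +3 d. The increases were unequal. CSN1S2 (casein alpha-S2) had 1701 tags at −7 d and 60734 at +3 d and rose from 304 to 10389 TPM (34.2-fold), with an interval of 32.6 to 35.9. LALBA (alpha-lactalbumin), the subunit that turns galactosyltransferase into lactose synthase, had 1111 and 30543 tags and rose from 199 to 5225 TPM (26.3-fold), with an interval of 24.8 to 28.0. These genes stood low before calving and made the steepest gains of the group. CSN1S1 (casein alpha-S1) rose from 10599 to 80621 TPM (7.61-fold) and was the most abundant gene after calving. CSN2 (casein beta) rose from 12496 to 64463 TPM (5.16-fold). PAEP, the gene of the whey protein beta-lactoglobulin, rose from 13817 to 57199 TPM (4.14-fold) and had been the most abundant of the group at −7 d. CSN3 (casein kappa), which coats the casein micelle, rose from 4109 to 13442 TPM (3.27-fold), the smallest gain of the 6.

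Secreted defence proteins of milk moved in both directions: of 36 genes, 12 were upregulated and 9 downregulated (15 and 7 after TMM scaling). GLYCAM1, a mucin-type glycoprotein of the milk whey, rose from 94.2 to 3839.8 TPM (40.8-fold), with an interval of 37.4 to 44.5; its level at −35 d was 4.06 TPM. HSTN (histatherin), a small secreted peptide gene, rose from 34.0 to 989 TPM (29.1-fold). LPO (lactoperoxidase), the antibacterial peroxidase of milk, had 2 tags at −7 d and 440 at +3 d (0.358 and 75.3 TPM). These 3 genes were among the steepest gains of any gene. PIGR, the receptor that carries IgA and IgM across the epithelium, fell from 1389.5 to 299 TPM (4.65-fold), with an interval of 4.41 to 4.90. PGLYRP1, a peptidoglycan-binding defence protein, fell from 32.2 to 1.54 TPM (20.9-fold). LPLUNC1, a secreted protein of the bactericidal/permeability-increasing family, had 15 tags at −7 d and 0 at +3 d, and was called lower. The iron-binding protein LTF (lactoferrin) had 1666 TPM at −7 d and 1136 TPM at +3 d, and the chaperone clusterin (CLU) had 1858 TPM at −7 d and 2999 TPM at +3 d; neither reached 2-fold.

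Genes of milk fat globule formation were mostly higher: 7 of 14 were upregulated and 1 downregulated (8 and 1 after TMM scaling), and the median log2 ratio was 0.88 (1.19 after TMM scaling). CIDEA, a lipid droplet protein, rose from 4.29 to 31.8 TPM (7.42-fold). The membrane mucins MUC15 and MUC1 rose from 21.8 to 117 TPM (5.37-fold) and from 21.99 to 98.4 TPM (4.47-fold). ABCG2, a transporter of the apical membrane, rose from 56.3 to 133 TPM (2.37-fold). XDH, the xanthine oxidoreductase of the globule membrane, was abundant in both libraries, with 827 TPM at −7 d and 1391 TPM at +3 d, and was called only after TMM scaling (2.08-fold). MFGE8 had 339 TPM at −7 d and 507 TPM at +3 d and was not called. The exception to these gains was PLIN2, which coats cytoplasmic lipid droplets and fell from 509 to 204 TPM (2.496-fold).

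Genes of fatty acid uptake, activation and esterification were called in both directions. LPL (lipoprotein lipase), which frees fatty acids from plasma lipoproteins, rose from 38.3 to 172 TPM (4.50-fold), with an interval of 3.88 to 5.24. CD36, a membrane carrier of fatty acids, rose from 77.2 to 272 TPM (3.53-fold), and the binding proteins FABP3 and FABP4 rose from 46.3 to 157 TPM (3.38-fold) and from 91.4 to 244 TPM (2.67-fold). In the list of uptake, activation and esterification, 5 of 26 genes were upregulated and 3 downregulated (5 and 1 after TMM scaling), and its median turned from −0.02 to 0.28 with TMM scaling. Its genes that fell included DGAT2, an enzyme of triacylglycerol synthesis, which went from 29.5 to 2.57 TPM (11.5-fold). LPL, CD36 and FABP4 are also genes of adipocytes or endothelium. FABP4 and CFD were the called genes among 10 adipocyte markers, whose sum was 287 TPM at −7 d and 583 TPM at +3 d, and the part of adipocytes in these values was not tested. The acyltransferase GPAM had 114 TPM at −7 d and 108 TPM at +3 d and was not called.

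None of the 23 genes of fatty acid synthesis and desaturation was upregulated under either scaling, and 7 were downregulated (5 after TMM scaling), which is 30.4% against 10.4% of all genes. FASN (fatty acid synthase), the enzyme of de novo synthesis, had 15686 tags at −7 d and 3817 at +3 d and fell from 2804 to 653 TPM (4.30-fold), with an interval of 4.15 to 4.45; its level at −35 d was 660.4 TPM. THRSP, a lipogenic nuclear protein also known as Spot 14, fell from 61.0 to 2.74 TPM (22.3-fold), and its relative MID1IP1 fell from 14.7 to 4.62 TPM (3.17-fold). SCD5, a stearoyl-CoA desaturase, fell from 47.2 to 16.8 TPM (2.82-fold). The main desaturase SCD had 796 TPM at −7 d and 472 TPM at +3 d and stayed under 2-fold.

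Cholesterol synthesis showed the same one-sided count, with 0 of 26 genes upregulated and 9 downregulated (5 after TMM scaling), and a median log2 ratio of −0.79 (−0.48). SQLE (squalene epoxidase) fell from 271 to 72.5 TPM (3.73-fold), with an interval of 3.35 to 4.17. CYP51A1, HSD17B7 and MVD, also enzymes of the pathway, fell from 25.7 to 7.36 TPM (3.50-fold), from 137 to 51.8 TPM (2.65-fold) and from 19.5 to 6.50 TPM (3.00-fold). The regulators SREBF1 and INSIG1 had 147 TPM at −7 d and 92.0 TPM at +3 d, and 94.9 TPM at −7 d and 65.0 TPM at +3 d, respectively, and neither was called.

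Of the 18 genes of lactose synthesis and glucose supply, 2 were upregulated and 0 were downregulated. After TMM scaling 3 were upregulated and 0 downregulated. LALBA was among the upregulated genes and is also counted in the list of caseins and main whey proteins. The upregulated share was 11.1% (16.7% after TMM scaling), against 3.12% (5.87%) of all genes. SLC2A1, the main glucose carrier of the epithelium, had 54.7 TPM at −7 d and 49.95 TPM at +3 d. The median of the list was −0.13 on clean tags and 0.17 after TMM scaling, with 5 members above 0 and 12 below on clean tags, and 10 and 7 after TMM scaling. Among the 15 glycolytic genes only ALDOC (aldolase C) was called under either scaling, and it fell from 329 to 25.8 TPM (12.8-fold), with an interval of 10.8 to 15.2. The list of the pentose phosphate pathway, which supplies NADPH for fat synthesis, had 5 of 9 genes downregulated on clean tags and 1 after TMM scaling, TALDO1 (transaldolase), which fell from 379.9 to 86.9 TPM (4.37-fold).

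Called genes in 6 lists of mitochondrial functions were all lower, but after TMM scaling the share called lower in some of these lists was near or under that of all genes (4.9%). Of the 76 subunits of the respiratory chain and ATP synthase, 20 were downregulated (26.3%) and 0 upregulated, with a median log2 ratio of −0.83. After TMM scaling the median was −0.52 and 2 remained called: NDUFV2 (in the more abundant of its 2 accessions) and NDUFC2, subunits of complex I, which fell from 39.0 to 11.1 TPM (3.51-fold) and from 11.4 to 3.59 TPM (3.19-fold). The abundant subunit COX4I1 had 521 TPM at −7 d and 578 TPM at +3 d. The citrate cycle list had 5 of 23 genes downregulated (3 after TMM scaling), among them SUCLG1, MDH2 and FH, which fell from 117 to 34.6 TPM (3.40-fold), from 211 to 80.6 TPM (2.62-fold) and from 91.0 to 35.2 TPM (2.58-fold). Fatty acid beta oxidation had 6 of 24 downregulated (3), with ACOX2, a peroxisomal oxidase, falling from 75.3 to 16.6 TPM (4.54-fold). Breakdown of branched chain amino acids and propionate had 8 of 24 downregulated (4), including PCCB of propionyl-CoA carboxylase, which fell from 70.1 to 21.2 TPM (3.30-fold). For mitochondrial protein import the numbers were 9 of 33 (6), led by the chaperones HSPA9, which fell from 71.7 to 19.8 TPM (3.61-fold), and HSPE1, which fell from 270.3 to 103 TPM (2.62-fold). For mitochondrial ribosomal proteins they were 12 of 71 (4), with MRPS26 falling from 111 to 36.8 TPM (3.03-fold). None of these 6 lists held an upregulated gene under either scaling. On clean tags the shares called lower ran from 16.9% (mitochondrial ribosomal proteins) to 33.3% (branched chain amino acids and propionate), against 10.4% of all genes. After TMM scaling the share was 2.63% for the respiratory chain and 5.63% for mitochondrial ribosomal proteins, and between 12.5% and 18.2% for the others.

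Serine, glycine and folate metabolism, which feeds nucleotide synthesis, had 7 of 19 genes downregulated and 0 upregulated (5 and 1 after TMM scaling). PHGDH, the first enzyme of serine synthesis, fell from 44.0 to 4.79 TPM (9.18-fold), with an interval of 6.20 to 14.1, and PSAT1, the second, fell from 24.5 to 5.99 TPM (4.09-fold). MTHFD1, an enzyme of the folate cycle, fell from 71.9 to 20.9 TPM (3.44-fold). Nucleotide synthesis itself had 17 of 33 genes downregulated (8) and 1 upregulated (3). CTPS (CTP synthase) fell from 73.8 to 12.8 TPM (5.76-fold), IMPDH2, of guanine nucleotide synthesis, fell from 67.6 to 20.2 TPM (3.35-fold), and the thymidine enzymes TK1 and TYMS fell from 27.0 to 6.67 TPM (4.05-fold) and from 6.08 to 1.197 TPM (5.08-fold).

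Lists of the protein synthesis machinery had medians below that of all genes in the library rich in milk protein transcripts, with few or no upregulated genes. The 52 cytosolic ribosomal protein genes had a summed level of 51663 TPM at −7 d and 30922 TPM at +3 d and a median log2 ratio of −0.62 (−0.31 after TMM scaling), while only 5 were called (3). RPS18 fell from 1962 to 608 TPM (3.23-fold) and RPL7 fell from 195 to 63.3 TPM (3.09-fold), whereas RPL13A, the most abundant, had 6275 TPM at −7 d and 3235 TPM at +3 d. Many ribosomal protein genes have near-identical copies, and tags that fit several genes had been left out of the counts, so single values of this family are uncertain. Ribosome biogenesis had 23 of 69 genes downregulated (13), for example RRS1, which fell from 26.8 to 7.87 TPM (3.41-fold), and NOL10, which fell from 29.5 to 9.75 TPM (3.03-fold). Of the 48 genes listed as translation factors, 7 were downregulated (14.6%, against 10.4% of all genes). Only 1 was after TMM scaling (2.08%, against 4.9%), the gene EEF1E1, which fell from 34.9 to 13.3 TPM (2.61-fold). The elongation factor EEF2 had 806 TPM at −7 d and 600.3 TPM at +3 d. The tRNA synthetase list had 4 of 21 downregulated (3), with YARS falling from 251 to 96.1 TPM (2.61-fold) and QARS falling from 190.1 to 76.1 TPM (2.497-fold).

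Of the 43 proteasome genes, 21 (48.8%) were downregulated and 0 upregulated, with a median log2 ratio of −0.96 (−0.65 after TMM scaling, 6 called). Among the 20S core subunits called lower, PSMA3 fell from 169 to 59.4 TPM (2.84-fold), PSMA5 from 129 to 46.2 TPM (2.79-fold) and PSMB2 from 185 to 68.1 TPM (2.72-fold). Splicing factors and snRNP proteins had 18 of 65 downregulated (8), with SRSF2 falling from 533 to 182 TPM (2.93-fold) and SRSF3 from 47.2 to 14.0 TPM (3.36-fold).

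Endoplasmic reticulum (ER) genes, through which milk proteins are folded and exported, did not follow the caseins upward. Of 32 ER chaperones and folding enzymes, 11 were downregulated and 2 upregulated (4 and 3 after TMM scaling), and the summed level was 4069 TPM at −7 d and 2260.2 TPM at +3 d. HSPA5, the chaperone BiP, had 2336 and 955 tags and fell from 418 to 163 TPM (2.56-fold), with an interval of 2.37 to 2.76. CALR (calreticulin) fell from 1154 to 455 TPM (2.54-fold). PPIB, a prolyl isomerase, had 347 TPM at −7 d and 323 TPM at +3 d. Translocation, signal peptidase and glycosylation had 9 of 39 downregulated (4), with SRP19 of the signal recognition particle falling from 146 to 46.5 TPM (3.15-fold). In the coats of ER to Golgi transport, 2 of 39 were downregulated on clean tags and 0 after TMM scaling. The unfolded protein response list had 1 of 15 called under either scaling, CREB3L2, which fell from 24.1 to 9.41 TPM (2.57-fold), and a median of −0.01 that turned to 0.30. Cytosolic chaperones had 7 downregulated and 1 upregulated of 44 (2 and 1), the latter HSPB6, a small heat shock protein of muscle, which rose from 13.6 to 31.8 TPM (2.34-fold).

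**Figure D3:**
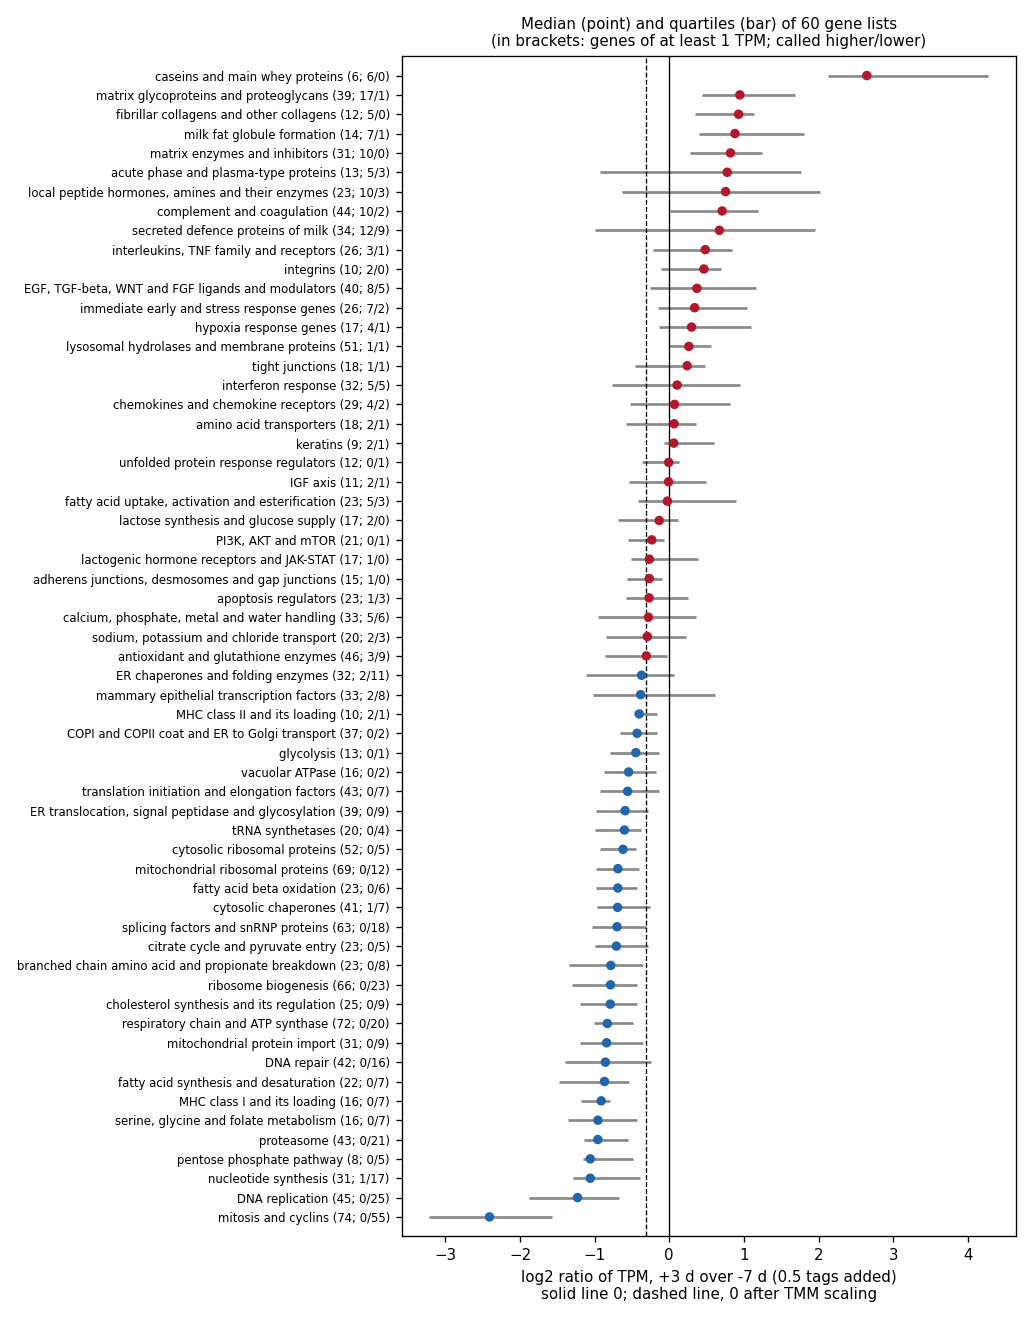
Median (point) and quartiles (grey bar) of the log2 ratio of +3 d over −7 d in 60 gene lists, over members averaging 1 TPM or more; the solid line is 0 on clean tags and the dashed line 0 after TMM scaling, points are red right of the dashed line and blue left of it, and brackets give the genes counted and the numbers called higher and lower. Caseins and whey proteins stood at the top with 2.65, matrix glycoproteins followed with 0.95, and mitosis stood alone at the bottom with −2.41.

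Cell division genes had the lowest median ratio of the 60 function lists. Of 85 genes of mitosis and cyclins, 55 (64.7%) were downregulated and 0 upregulated, and 48 were downregulated after TMM scaling. Their median log2 ratio was −2.41 (−2.10 after TMM scaling), and the summed level was 921 TPM at −35 d, 1384 TPM at −7 d and 427 TPM at +3 d. The kinase TTK of the spindle checkpoint and the kinesin KIF4A each had 43 tags at −7 d and none listed at +3 d, and DLGAP5, a spindle protein, had 34 and none. BUB1, another checkpoint kinase, had 66 tags at −7 d and 2 at +3 d. Members with more tags left were also lower: LMNB1 (lamin B1) fell from 84.7 to 14.9 TPM (5.69-fold), STMN1, a regulator of microtubules, fell from 158 to 33.7 TPM (4.67-fold), and GTSE1 fell from 55.6 to 16.6 TPM (3.35-fold). Cyclin D3 (CCND3) had 117 TPM at −7 d and 91.2 TPM at +3 d and was not called, nor was the checkpoint protein BUB3, with 77.8 TPM at −7 d and 50.3 TPM at +3 d.

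DNA replication followed, with 25 of 49 genes downregulated (17 after TMM scaling), 0 upregulated and a median of −1.23 (−0.92). The helicase subunits MCM4 and MCM3 fell from 77.8 to 10.6 TPM (7.33-fold) and from 21.8 to 3.25 TPM (6.71-fold), while MCM7 had 62.8 TPM at −7 d and 37.5 TPM at +3 d. PCNA, the sliding clamp of the polymerase, fell from 86.4 to 23.4 TPM (3.68-fold), with an interval of 3.04 to 4.49. UHRF1, which carries DNA methylation through replication, fell from 41.5 to 2.91 TPM (14.3-fold). In DNA repair, 16 of 45 were downregulated (11) and 0 upregulated; the checkpoint kinase CHEK1 fell from 11.1 to 0.684 TPM (16.2-fold), and RAD54L, of homologous recombination, fell from 27.7 to 3.25 TPM (8.53-fold).

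**Figure D4:**
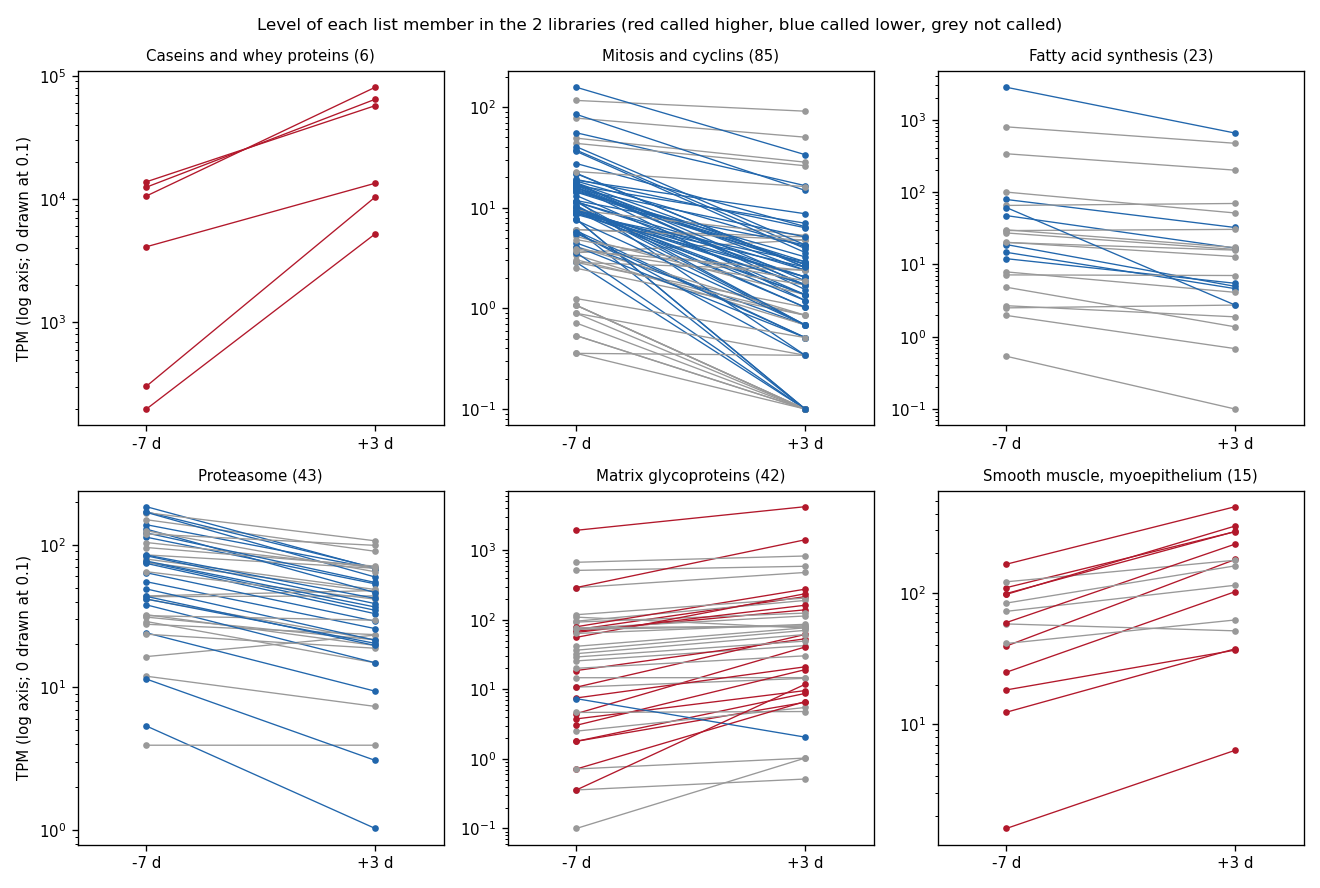
TPM of each member at −7 d and +3 d on a log axis, with 0 drawn at 0.1, for 6 gene lists; red lines are members called higher, blue lines members called lower and grey lines members not called. The 6 caseins and whey proteins rose, 55 of 85 mitosis genes and 21 of 43 proteasome genes fell, and 17 of 42 matrix glycoprotein genes and 10 of 15 smooth muscle and myoepithelial markers rose.

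Extracellular matrix genes were higher after calving. Of 42 matrix glycoproteins and proteoglycans, 17 (40.5%) were upregulated, against 3.12% of all genes, and 1 downregulated (25 and 0 after TMM scaling). SPARC (osteonectin), a collagen-binding protein, rose from 1929 to 4211 TPM (2.18-fold), and MGP (matrix Gla protein), an inhibitor of calcification, rose from 290.0 to 1409 TPM (4.86-fold), with an interval of 4.61 to 5.13. ELN (elastin) rose from 79.2 to 275 TPM (3.47-fold), MFAP4, of elastic microfibrils, rose from 4.47 to 40.5 TPM (9.07-fold), and ECM1 rose from 10.7 to 61.4 TPM (5.72-fold). The proteoglycans LUM and DCN had 511 TPM at −7 d and 586 TPM at +3 d, and 669 TPM at −7 d and 824 TPM at +3 d, and were not called.

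Collagens had 5 of 16 genes upregulated and 0 downregulated (6 and 0 after TMM scaling). COL1A2 rose from 647 to 1615 TPM (2.498-fold), COL6A1 from 299 to 649.9 TPM (2.18-fold) and COL8A1 from 23.8 to 184 TPM (7.74-fold). COL1A1 had 2072 TPM at −7 d and 3262 TPM at +3 d and COL3A1 had 1829 TPM at −7 d and 2389.6 TPM at +3 d, both under 2-fold. Among matrix enzymes and inhibitors 10 of 37 were upregulated and 0 downregulated (15 and 0). LOX and LOXL1, which crosslink collagen and elastin, rose from 1.07 to 11.1 TPM (10.4-fold) and from 52.6 to 116 TPM (2.21-fold), the collagenase inhibitor TIMP1 rose from 26.8 to 78.3 TPM (2.92-fold), and PCOLCE, an enhancer of procollagen processing, rose from 53.5 to 130.3 TPM (2.44-fold). Of 13 integrin genes, 2 were upregulated under either scaling: ITGB5, which rose from 41.5 to 83.1 TPM (2.004-fold), and ITGB6, with 0 tags at −7 d and 18 at +3 d.

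The epithelial junctions, which close around calving, moved little at the transcript level. Of 25 tight junction genes, CLDN5, of endothelium, rose from 19.7 to 43.8 TPM (2.23-fold) and CLDN8, a claudin of tight epithelia, fell from 149 to 48.9 TPM (3.06-fold), and 3 genes were upregulated after TMM scaling. CLDN4 had 46.1 TPM at −7 d and 66.2 TPM at +3 d and CLDN7 had 108 TPM at −7 d and 77.5 TPM at +3 d. Adherens, desmosome and gap junction genes had 1 of 15 upregulated, the nectin PVRL2, which rose from 10.4 to 31.6 TPM (3.05-fold), and a median of −0.27 that turned to 0.04 after TMM scaling. Of 11 keratins 2 were upregulated and 1 downregulated (2 and 0). KRT17, of basal cells, rose from 98.7 to 293 TPM (2.97-fold), and KRT75 had 0 tags at −7 d and 15 at +3 d, while the luminal keratin KRT8 had 157 TPM at −7 d and 164 TPM at +3 d.

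Transporters moved in both directions. SLC34A2, the apical sodium phosphate carrier, had 0 tags at −7 d and 38 at +3 d, and the water channel AQP1 rose from 57.9 to 121 TPM (2.09-fold). The copper carrier SLC31A1 fell from 179 to 67.9 TPM (2.64-fold). In the list of calcium, phosphate, metal and water handling, 5 of 37 genes were upregulated and 6 downregulated (5 and 1 after TMM scaling), with a median of −0.28 that turned to 0.03. SLC12A2, the basolateral sodium potassium chloride cotransporter, fell from 21.3 to 3.93 TPM (5.41-fold), and KCNN4, a calcium-gated potassium channel, fell from 10.7 to 2.05 TPM (5.23-fold). The ion transport list had 2 upregulated and 3 downregulated of 30 (2 and 2), and its median turned from −0.29 to 0.01. Its share called lower, 10% (6.67% after TMM scaling), was near that of all genes, 10.4% (4.9%). Of 20 amino acid transporters, 2 were upregulated and 1 downregulated (3 and 1). These shares were 10% and 5% (15% and 5%), against 3.12% and 10.4% (5.87% and 4.9%) of all genes. SLC6A14 fell from 36.7 to 3.08 TPM (11.9-fold), while SLC38A3 and SLC43A2 rose from 4.29 to 11.3 TPM (2.63-fold) and from 3.75 to 9.75 TPM (2.60-fold).

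Immune genes moved by family. Complement and coagulation had 10 of 47 genes upregulated and 2 downregulated (18 and 2 after TMM scaling). C3, the central complement component, rose from 64.9 to 230.2 TPM (3.55-fold), CFD (factor D) rose from 32.2 to 114 TPM (3.55-fold) and F13A1, the clot-stabilising transglutaminase subunit, rose from 7.15 to 57.8 TPM (8.08-fold). SERPINA1 (alpha-1 antitrypsin) fell from 49.9 to 6.16 TPM (8.10-fold). Acute phase genes were also divided, with 5 upregulated and 3 downregulated of 16 (6 and 3): LBP, which binds bacterial lipopolysaccharide, rose from 7.33 to 38.5 TPM (5.25-fold) and its partner CD14 rose from 4.29 to 19.7 TPM (4.58-fold), whereas SAA3, the mammary serum amyloid, fell from 179.7 to 45.0 TPM (3.99-fold).

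Antigen presentation by MHC class I was lower, with 7 of 17 genes downregulated and 0 upregulated (2 and 0 after TMM scaling). The class I light chain B2M had 4366 TPM at −7 d and 2285 TPM at +3 d, under 2-fold, and the peptide-trimming enzyme ERAP2 fell from 14.7 to 5.13 TPM (2.86-fold). In MHC class II, 2 of 11 genes were upregulated and 1 downregulated (2 and 0). The genes listed as HLA-DQA1 and BOLA-DQB rose from 11.4 to 75.1 TPM (6.56-fold) and from 13.9 to 32.2 TPM (2.31-fold), while the invariant chain CD74 had 999 TPM at −7 d and 754 TPM at +3 d and HLA-DRA had 413 TPM at −7 d and 306 TPM at +3 d. DQ genes are duplicated and polymorphic in cattle, so values of single DQ genes are uncertain. The interferon response list had 5 upregulated and 5 downregulated of 37 (8 and 2 after TMM scaling). These shares were 13.5% and 13.5% (21.6% and 5.41%), against 3.12% and 10.4% (5.87% and 4.9%) of all genes. Its median log2 ratio on clean tags was 0.105, against −0.31 for all genes averaging 1 TPM or more. MX1 and IFI27 rose from 11.6 to 31.1 TPM (2.68-fold) and from 18.8 to 53.0 TPM (2.82-fold), and the chemokine CXCL10, which interferon gamma induces, fell from 68.5 to 26.3 TPM (2.60-fold). Among 34 chemokines and receptors, 4 were upregulated and 2 downregulated (6 and 2); CXCL2, which attracts neutrophils, in the more abundant of its 2 accessions, rose from 57.2 to 165 TPM (2.88-fold) and the lymphoid chemokine CCL21 fell from 15.0 to 4.62 TPM (3.25-fold). The list of interleukins, TNF family and receptors had 3 upregulated and 1 downregulated of 42 (6 and 1), including CSF1R, the macrophage growth factor receptor, which rose from 22.5 to 54.4 TPM (2.41-fold). Lysosomal genes were mostly uncalled, with 1 upregulated and 1 downregulated of 52 (7 and 0), and the protease CTSF rose from 28.6 to 70.8 TPM (2.48-fold). The vacuolar ATPase, which acidifies lysosomes, had 2 of 20 genes downregulated (1) and 0 upregulated, with ATP6V1B2 falling from 34.1 to 13.001 TPM (2.63-fold). Its share called lower, 10% (5%), was near that of all genes, 10.4% (4.9%).

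Local peptide hormones, amines and their enzymes held some of the sharpest single changes: 10 of 28 were upregulated and 3 downregulated (11 and 2 after TMM scaling). SST (somatostatin) had 0, 0 and 97 tags in the −35 d, −7 d and +3 d libraries. PTHLH, the parathyroid hormone-related protein that mobilises calcium from bone in lactation, rose from 4.29 to 28.1 TPM (6.54-fold), with an interval of 4.24 to 10.5. ADM (adrenomedullin), a vasodilator peptide, rose from 11.8 to 59.5 TPM (5.04-fold), and PTGES, which makes prostaglandin E2, rose from 6.08 to 36.8 TPM (6.05-fold). PNMT, which methylates noradrenaline to adrenaline, had 46 tags at −7 d and 0 at +3 d, and the dopamine receptor DRD1 had 36 and 2.

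Growth factor and morphogen genes moved in both directions. The list had 8 upregulated and 5 downregulated of 50 genes (11 and 5 after TMM scaling). These shares were 16% and 10% (22% and 10%), against 3.12% and 10.4% (5.87% and 4.9%) of all genes. RSPO1 (R-spondin 1), an enhancer of WNT signals, had 130 tags at −7 d and 0 at +3 d, and the WNT inhibitor WIF1 had 20 and 0. The secreted frizzled-related proteins SFRP1 and SFRP4, which bind WNT ligands, rose from 37.7 to 90.8 TPM (2.41-fold) and from 22.2 to 79.4 TPM (3.58-fold). GDF10, a ligand of the TGF-beta family, fell from 24.3 to 3.93 TPM (6.18-fold), and CHRDL2, a chordin-like protein, fell from 16.4 to 0.855 TPM (19.2-fold). In the IGF axis, IGFBP1 had 0 tags at −7 d and 31 at +3 d, IGFBP5 rose from 5.72 to 15.9 TPM (2.78-fold) and H19, the imprinted transcript beside IGF2, fell from 245 to 93.6 TPM (2.61-fold), while IGF2 itself had 245 TPM at −7 d and 292 TPM at +3 d. The median of the 11 IGF genes turned from −0.01 to 0.30 after TMM scaling. PI3K, AKT and mTOR genes had 1 of 27 downregulated on clean tags and 1 upregulated after TMM scaling, with medians of −0.23 and 0.07.

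The receptors and signal carriers of the lactogenic hormones were nearly unmoved in the calls. Of 20 genes, 1 was upregulated and 0 downregulated under either scaling, and the median turned from −0.27 to 0.04. The median covers the 17 genes averaging 1 TPM or more, of which only some are named here. The called gene was OXTR, the oxytocin receptor of myoepithelium, with 9 tags at −7 d and 37 at +3 d, which rose from 1.61 to 6.33 TPM (3.93-fold) with an interval of 1.86 to 9.27 and an adjusted p of 0.000192 by the Audic-Claverie test with Benjamini-Hochberg adjustment. STAT5A, which carries the prolactin signal, had 40 and 17 tags (7.15 TPM at −7 d and 2.91 TPM at +3 d), a lower value that did not pass the FDR threshold (adjusted p = 0.00398 in the same test). STAT3 had 25.9 TPM at −7 d and 30.6 TPM at +3 d, the feedback inhibitor SOCS2 had 7.87 TPM at −7 d and 10.3 TPM at +3 d, the thyroid hormone receptor THRA had 39.5 TPM at −7 d and 25.1 TPM at +3 d and the mineralocorticoid receptor NR3C2 had 13.6 TPM at −7 d and 7.18 TPM at +3 d. The growth hormone receptor GHR and the progesterone receptor PGR were near the detection limit in both libraries, with 4 and 6 tags and 7 and 6 tags; GHR averaged under 1 TPM and was named after its values were seen.

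Among 35 transcription factors of the mammary epithelium, 8 were downregulated and 2 upregulated on clean tags, and 3 and 7 after TMM scaling. These shares were 22.9% and 5.71% (8.57% and 20%), against 10.4% and 3.12% (4.9% and 5.87%) of all genes. The change of direction with the scaling was thus also that of all called genes. MYB, a factor of proliferating progenitors, fell from 29.5 to 2.39 TPM (12.3-fold), with an interval of 7.14 to 23.0, and MYC, a driver of cell growth, fell from 48.1 to 13.7 TPM (3.51-fold). TFAP2C, an AP-2 factor, fell from 24.0 to 9.24 TPM (2.59-fold). ELF5, a factor of alveolar differentiation, fell from 353 to 155 TPM (2.27-fold) on clean tags but was not called after TMM scaling (1.84-fold). KLF4 rose from 4.47 to 11.1 TPM (2.49-fold), and CEBPD had 191 TPM at −7 d and 227 TPM at +3 d.

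Among immediate early and stress response genes 7 of 28 were upregulated and 2 downregulated (9 and 1 after TMM scaling). TXNIP, an inhibitor of thioredoxin, rose from 312 to 782 TPM (2.51-fold), ATF3 rose from 3.75 to 16.4 TPM (4.37-fold) and CYR61, a matricellular protein, rose from 15.2 to 47.0 TPM (3.095-fold). The hypoxia list had 4 upregulated and 1 downregulated of 18 (5 and 1). ANGPTL4, an inhibitor of lipoprotein lipase, rose from 5.01 to 14.4 TPM (2.87-fold) and the haem oxygenase HMOX1 rose from 45.4 to 93.7 TPM (2.06-fold). The lowest log2 ratio of this list was −3.67 and the highest 2.82, and its summed level was 944.5 TPM at −7 d and 617.0 TPM at +3 d. Antioxidant and glutathione enzymes had 3 upregulated and 9 downregulated of 49 (3 and 2). GPX3, the secreted glutathione peroxidase, rose from 50.8 to 257 TPM (5.06-fold) and PRDX1 (peroxiredoxin 1) fell from 217 to 84.7 TPM (2.56-fold). In this list the median turned from −0.31 to 0.00053 after TMM scaling. Apoptosis regulators had 1 upregulated and 3 downregulated of 32 (3 and 1), and their median turned from −0.27 to 0.04. On clean tags these shares, 3.125% and 9.375%, were near those of all genes, 3.12% and 10.4%. After TMM scaling they were 9.375% and 3.125%, against 5.87% and 4.9%.

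Some of the most extreme genes of the whole comparison were as follows, taken without regard to function. FCGR2, an Fc receptor for IgG, had 15031 tags at −7 d and 705 at +3 d and fell from 2687 to 121 TPM (22.3-fold), with an interval of 20.7 to 24.1, the largest loss in TPM of any gene. Its level at −35 d was 509.8 TPM. TFF3 (trefoil factor 3), a peptide of mucous surfaces, fell from 1018 to 178 TPM (5.71-fold), and TUBA1B, an alpha tubulin, fell from 1228 to 416 TPM (2.95-fold). The largest fold decrease among genes with over 3 tags in each library was that of PAF (KIAA0101), which binds PCNA, and which fell from 67.9 to 1.71 TPM (39.7-fold). HS3ST1, which sulfates heparan chains, fell from 109 to 3.59 TPM (30.2-fold), and ZWINT, a kinetochore protein, fell from 11.4 to 0.684 TPM (16.7-fold). On the rising side, CD5L, a protein secreted by macrophages, rose from 0.894 to 29.9 TPM (33.5-fold), with an interval of 14.1 to 104. ALOX15 (arachidonate 15-lipoxygenase) rose from 0.894 to 17.8 TPM (19.9-fold), the granule glycoprotein GP2 rose from 6.79 to 85.7 TPM (12.6-fold), and CD163, the haemoglobin scavenger receptor of macrophages, rose from 1.97 to 19.8 TPM (10.1-fold).

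In all, 13 upregulated genes had no tag listed at −7 d, and 21 downregulated genes had none at +3 d. Besides SST, SLC34A2 and IGFBP1, those with most tags were NRIP3 with 29 tags at +3 d, MYBPH, a myosin-binding protein, with 28, and PAMR1 with 27. At −7 d alone, after RSPO1, PNMT, KIF4A, TTK and DLGAP5, the next was ATP4A, a proton pump subunit, with 21 tags. No gene with fewer than 12 tags over both libraries was called.

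Markers of the cell types in the tissue moved as well. Smooth muscle and myoepithelial markers had 10 of 15 genes upregulated and 0 downregulated (11 and 0 after TMM scaling), with a summed level of 1002 TPM at −7 d and 2519.6 TPM at +3 d (1398 TPM at −35 d). The contractile genes DES (desmin), CNN1 (calponin), TPM2 (tropomyosin) and TAGLN (transgelin) rose from 39.3 to 179 TPM (4.56-fold), from 24.9 to 102 TPM (4.10-fold), from 97.3 to 322 TPM (3.31-fold) and from 109 to 292 TPM (2.67-fold). MYH11, the myosin of smooth muscle, had 121 TPM at −7 d and 177 TPM at +3 d and was not called. Skeletal muscle markers were low in both libraries, at a sum of 20.7 and 38.7 TPM, with 3 of 13 upregulated and 0 downregulated under either scaling.

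Macrophage markers had 5 of 14 upregulated and 0 downregulated (7 and 0), and their sum was 314 TPM at −7 d and 568 TPM at +3 d. Besides CD5L, CD163, CSF1R and CD14, the complement receptor VSIG4 rose from 3.58 to 10.6 TPM (2.97-fold), while C1QA had 94.2 TPM at −7 d and 126 TPM at +3 d and AIF1 had 28.8 TPM at −7 d and 38.1 TPM at +3 d. Fibroblast markers had 3 of 11 upregulated (7), with PI16 rising from 58.8 to 305 TPM (5.18-fold) and FAP rising from 2.32 to 13.3 TPM (5.74-fold), at sums of 6239 and 9850.3 TPM. Endothelial markers had 3 of 14 upregulated (4), with sums of 444 and 605 TPM, and adipocyte markers 2 of 10 (4), with sums of 287 and 583 TPM.

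Markers of luminal epithelium, the cells that make milk, had 1 upregulated and 1 downregulated of 12 (1 and 0 after TMM scaling), with sums of 1797 and 1671 TPM. The epithelial adhesion protein EPCAM had 293 TPM at −7 d and 210.2 TPM at +3 d. T cell markers had 1 gene called in each direction of 16 (1 upregulated and 0 downregulated after TMM scaling), CD8A, which rose from 9.48 to 20.01 TPM (2.11-fold), and CD27, which fell from 24.7 to 12.1 TPM on clean tags only. None of 6 B and plasma cell markers was called; the joining chain IGJ had 149 TPM at −7 d and 160.3 TPM at +3 d. Of 8 neutrophil markers 1 was called, PGLYRP1, and S100A8 had 3.93 TPM at −7 d and 5.82 TPM at +3 d. Of 3 mast cell and eosinophil markers 1 was called, KIT, also a receptor of luminal progenitors, which fell from 119 to 39.2 TPM (3.04-fold). The only other one averaging 1 TPM or more was higher, with a log2 ratio of 1.52, and was not called. Of 3 erythrocyte markers 1 was called, the gene listed as HBE4, which fell from 11.3 to 4.45 TPM on clean tags only. The only other one averaging 1 TPM or more was higher, with a log2 ratio of 0.97, and was not called. Some genes stand in both a function list and a marker list, such as FABP4, CFD, CD14 and CSF1R, so the 2 kinds of list are not independent. The part of cell composition in the matrix, complement, macrophage and fatty acid uptake genes above was not tested.

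**Figure D5:**
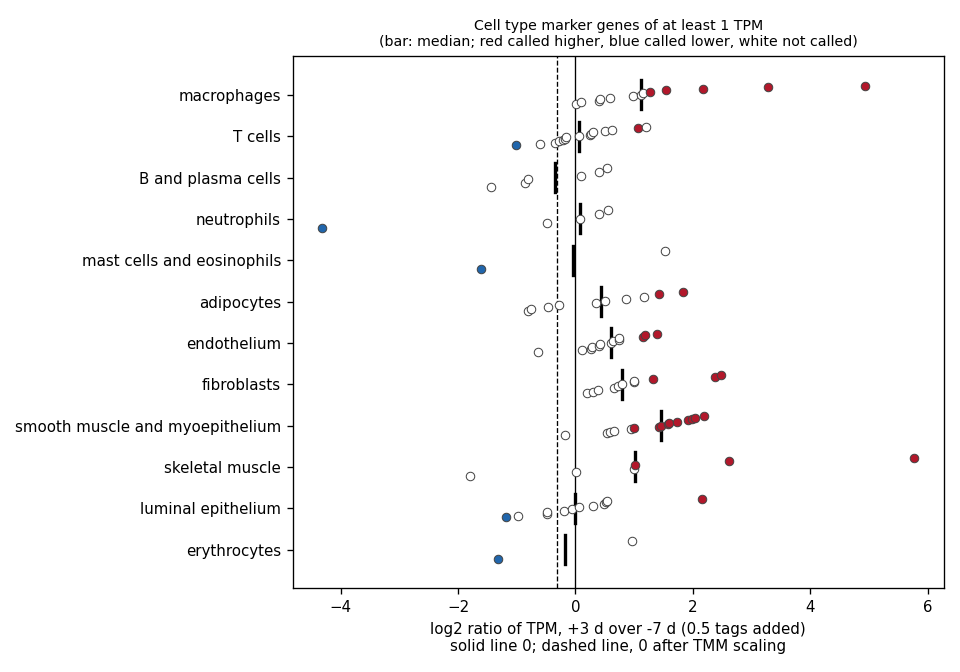
Log2 ratio of +3 d over −7 d (x axis) of each marker gene averaging 1 TPM or more, by cell type; black bars are medians, red points genes called higher, blue points genes called lower and white points genes not called. Smooth muscle and myoepithelium had a median of 1.45 and macrophages 1.12, while luminal epithelium stood at −0.0016 and T cells at 0.06.

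Across the 60 function lists, 34 held more genes called lower than higher on clean tags and 27 after TMM scaling, and 513 of the 1189 called genes lay in at least 1 of them. Among all called genes, 77.0% were lower on clean tags and 45.5% after TMM scaling, so the number of such lists is to be read beside that split. How far a spread between pools would weaken the calls cannot be read from 1 pool per day. When edgeR's exact test was run with a biological coefficient of variation set to 0.2, 65 genes were called upregulated and 95 downregulated. Of the mitosis genes 28 remained called lower and of DNA replication 6, of the 6 caseins and whey proteins 0 were called lower and 5 higher, and of the milk defence proteins 7 were called higher and 3 lower. The lists whose calls fell to 0 under that assumption included the proteasome, respiratory chain, mitochondrial ribosome, cytosolic ribosome, ribosome biogenesis and splicing. They also included translation factors, tRNA synthetases, both ER lists, mitochondrial import, the citrate cycle, MHC class I, interferon response, tight junctions and lactogenic receptors. Calls were kept by 6 matrix glycoproteins and 2 genes of fatty acid synthesis. With 0.4 in place of 0.2, 0 mitosis genes were called lower and 1 of the 6 caseins and whey proteins was called higher.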

How the data were processed

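Mammary tissue of 6 cows per day was pooled by the authors, and 1 DGE library was sequenced per pool. The authors removed adaptors, tags with unknown bases or of wrong length and tags with 1 copy, matched the remaining tags to CATG sites of bovine transcripts (UMD 3.1) with up to 1 mismatch, and dropped tags of several genes. The deposited counts are unambiguous clean tags per gene and copies per distinct tag. The deposited TPM values are those counts scaled to 1000000 clean tags, and recomputed values differed from them by at most 0.0050 TPM.

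Genes of the deposited tables were joined by accession, and an unlisted gene was given 0 tags. The main test was the Audic-Claverie test of the study's methods, with p as 2 times the smaller tail and Benjamini-Hochberg adjustment over 8784 genes; 0 TPM was set to 0.01 TPM for calls. Ratios on the log2 scale have 0.5 tags added, and list medians cover members averaging 1 TPM or more. TMM factors came from all 3 libraries with clean tags as library size. Genes, lists (60 of functions and 12 of cell type markers) and tests were chosen with earlier results of these data known. Any member averaging 1 TPM or more of the casein and whey list and of the lactogenic receptor list could be named. All 6 of the former were named, and only some of the latter. Every other list gave up to 6 members with the highest mean TPM and up to 6 called members with the largest ratio. Over all genes, the 10 called genes with the largest gain, loss, highest and lowest ratio, and the 6 with most tags in only 1 library, in each direction, were added; genes outside this rule are said to be so. Alternatives were 3 other scalings, thresholds of 3-fold and of a mean of 5 TPM, 0.5 tags added for calls, Fisher's exact test, and edgeR's exact test at set coefficients of variation (0.2 and 0.4). Test code was checked on simulated data. Symbols came from the deposited descriptions; 7905 accessions were also matched to RefSeq genes of ARS-UCD2.0, for list membership and for symbols the descriptions lack, and 93 symbols had several accessions. A gene that falls under the naming rule is not reported here. Promoter sequence was not analysed here, and the deposited summary of tag mapping was not used here. Scaling factors and the edgeR test came from edgeR 4.0.16 and DESeq2 1.42.0 under R 4.3.3. All else ran in Python 3.11.15, using pandas 2.3.3 for joins, scipy 1.17.1 and numpy 2.4.6 for tests, with matplotlib 3.10.9 for plots.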

Additional observations from a re-analysis of the deposited data

How the results depend on the processing

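No paired analysis was possible because each day has 1 library and no replicate numbers, and for the same reason no library could be left out. Of the 274 upregulated and 915 downregulated genes on clean tags, DESeq2's size factors gave 524 and 413, TMM scaling 516 and 430, and totals without the genes over 1% of a library 517 and 430. A 3-fold threshold left 128 and 312. An assumed coefficient of variation of 0.2 in edgeR's exact test left 65 and 95, and 0.4 left 6 and 2, where the smallest fold called among genes with over 3 tags in each library was 3.66 and 29.0. Fisher's exact test, a mean of at least 5 TPM, and 0.5 tags added kept both counts within 1.5 times, and under none of the 9 alternatives was a called gene called in the other direction. Lists with more genes called lower than higher numbered 34 of 60 and fell to 15 with a coefficient of variation of 0.2 and to 1 with 0.4; under the other alternatives they numbered 26 to 34. List medians below 0 numbered 40, and 29 under each of the 3 other scalings, where 11 medians changed sign; a mean of at least 5 TPM changed the sign of 1 and setting 0 to 0.01 TPM of 0. Of 235 accessions of named genes, TMM scaling kept direction and call for 227, lost the call of 3, added that of 1 and reversed 4 that were not called. On the log2 scale the reversed genes were GPAM (0.23, and 0.25 with DESeq2's size factors), PGR (0.038 and 0.053), PPIB (0.21 and 0.22) and SLC2A1 (0.18 and 0.19). The depth gives a floor of 3 tags, 0.536 TPM at −7 d and 0.513 TPM at +3 d. The spread among cows was not measured in these libraries.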

Other observations

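Of the 1189 called genes, 676 lay in none of the 60 function lists. The genes below come from these and were chosen after their values were seen, so they are a description only. Among those that rose, CYP11A1, the mitochondrial enzyme that cuts the side chain of cholesterol in steroid synthesis, went from 4.29 to 34.2 TPM (7.97-fold), with an interval of 5.21 to 12.7. GPNMB, a glycoprotein of macrophages and other phagocytes, rose from 7.15 to 49.6 TPM (6.94-fold). APOD, a secreted lipocalin, rose from 142 to 405 TPM (2.85-fold), and RARRES1, a retinoid-responsive membrane protein, rose from 39.5 to 162 TPM (4.10-fold). BACE1, a membrane-bound aspartyl protease, rose from 6.79 to 49.4 TPM (7.28-fold). NOV, a matricellular protein of the family of CYR61, rose from 24.0 to 131 TPM (5.46-fold), and GEM, a small GTPase that limits calcium channels, rose from 21.5 to 105 TPM (4.89-fold). FCN2 (ficolin 2), a starter of the lectin pathway of complement, rose from 1.25 to 11.6 TPM (9.29-fold). All of these genes were also called after TMM scaling.

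Among those that fell, CDCA7, a target of MYC in dividing cells, went from 95.5 to 15.6 TPM (6.13-fold). NGFR, the low affinity receptor of nerve growth factor, fell from 63.3 to 5.47 TPM (11.6-fold), with an interval of 8.04 to 17.2. DLK1, a membrane protein of immature cells, fell from 38.3 to 4.11 TPM (9.32-fold). FOLH1, a folate hydrolase, fell from 118 to 21.7 TPM (5.44-fold). MFSD2A, a carrier of lysophosphatidylcholine, fell from 51.5 to 4.45 TPM (11.6-fold), and CRYM, which binds thyroid hormone in the cytosol, fell from 43.8 to 8.21 TPM (5.33-fold). SRD5A1 (steroid 5 alpha-reductase), which reduces progesterone and testosterone, fell from 38.4 to 6.50 TPM (5.91-fold). These genes were called after TMM scaling as well, and the intervals cover counting error only.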
